A study of Mus musculus with 12 samples.

Results

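Acute phase protein genes encode plasma proteins that hepatocytes make and release in larger amounts during inflammation. The 10 genes described here were chosen by symbol from the table of 55903 genes, and each matched exactly 1 row. They are Saa1, Saa2, Saa4, Orm1, Orm2, Hp, Hpx, Lcn2, Apcs and Itih4. All 10 had a mean of at least 1 TPM over the 12 libraries, and in each group, and so were among the 10883 genes tested. TPM is an abundance scaled for transcript length and for the total of the library, so that levels of different genes can be compared.

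Liver RNA of mice was sequenced in 12 libraries, 4 in each of 3 groups. The KSL0608-Se treated group carries the code of a compound in its titles, and its description names both doxo and that compound. Titles of the aged/doxo group read aged control, whereas doxo stands in the description, and the labels do not spell that abbreviation out. The young control group is labelled young and control. Strain, sex, age in weeks, doses and times are not given in the labels, nor do they tie libraries to separate animals. The p-values below therefore reflect only how far these libraries spread, which may be technical. The series title places the study in light-activated removal of senescent cells, and the comparisons ask how the livers of the groups differ.

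In mouse liver, the acute phase response is driven mainly by cytokines of the interleukin-6 family, which act through the transcription factor STAT3, and by interleukin-1 and tumour necrosis factor, which act through NF-kappaB and C/EBP factors. Serum amyloid A proteins then travel on high-density lipoprotein, haptoglobin and hemopexin bind free haemoglobin and free haem, and lipocalin 2 binds the iron carriers of bacteria. Blood levels of these proteins are widely used as signs of systemic inflammation.

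The serum amyloid A genes lie together on chromosome 7 of GRCm38, with Saa4 from 46727998 to 46732603, Saa1 from 46740497 to 46742980 and Saa2 from 46751790 to 46754313. Orm1 (63344560 to 63348163) and Orm2 (63362449 to 63365878) are neighbours on chromosome 4. Hp lies on chromosome 8 (109575128 to 109579172), Hpx on chromosome 7 (105591613 to 105600137), Lcn2 on chromosome 2 (32384633 to 32388252), Apcs on chromosome 1 (172893961 to 172895041) and Itih4 on chromosome 14 (30886476 to 30902353). GENCODE M21 annotates all 10 as protein-coding. The Saa1 and Saa2 transcripts were identical at 572 of 606 aligned bases (94.4%), and those of Orm1 and Orm2 at 705 of 775 (91.0%). How the authors divided reads shared by such copies was not stated, so single values of Saa1, Saa2, Orm1 and Orm2 are uncertain, and sums are given beside them.

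RefSeq promoter windows on GRCm38.p6 matched 8 of the 10 genes, all but Hp and Orm1. The windows of Saa1, Saa2 and Orm2 are printed because Saa1 and Saa2 are near copies, and because Orm2 came nearest to a difference between groups. Each is shown 5′ to 3′ on the strand of its gene and ends at the base before the gene's annotated start. Capitals mark matches to TTGCNNAA, a core of the C/EBP site, searched on both strands.
Saa1, chr7:46742981-46743230, minus strand: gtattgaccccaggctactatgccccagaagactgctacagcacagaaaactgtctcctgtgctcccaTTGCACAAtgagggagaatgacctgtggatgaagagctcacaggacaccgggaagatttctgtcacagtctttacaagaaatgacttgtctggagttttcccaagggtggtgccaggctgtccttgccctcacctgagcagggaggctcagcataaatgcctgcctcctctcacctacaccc
Saa2, chr7:46751583-46751789, plus strand: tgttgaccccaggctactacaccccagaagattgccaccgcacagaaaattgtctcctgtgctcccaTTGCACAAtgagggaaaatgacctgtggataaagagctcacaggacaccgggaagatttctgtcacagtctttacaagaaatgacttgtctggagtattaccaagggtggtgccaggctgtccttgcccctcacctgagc
Orm2, chr4:63362199-63362448, plus strand: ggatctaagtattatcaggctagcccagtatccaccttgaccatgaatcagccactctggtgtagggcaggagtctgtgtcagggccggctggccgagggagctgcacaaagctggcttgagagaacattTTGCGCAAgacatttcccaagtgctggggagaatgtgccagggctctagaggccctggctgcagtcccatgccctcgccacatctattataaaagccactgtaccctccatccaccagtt
In the 250 bases before the RefSeq start, Saa1 and Saa2 were identical at 238 of 249 aligned bases (95.6%), against 124 of 202 (61.4%) for Saa1 and Saa4. TTGCNNAA was found in 6 of the 8 genes with a window, which were Hpx, Lcn2, Orm2, Saa1, Saa2 and Saa4, and in 9.6% of all 32851 windows. TTCNNNGAA, the core bound by STAT factors, was found in Apcs and Itih4, in each of which both strands match at 1 place, and in 7.0% of all windows. The consensus of NF-kappaB was found in none of the 8, and in 7.3% of all windows. Such matches describe letters only.

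Levels covered a wide range. Hp averaged 2401 TPM over the 12 libraries and Hpx 2389 TPM, which placed them 60th and 61st of all genes by mean level. Orm1 followed at 1239 TPM and Itih4 at 766 TPM. The lower tier held Saa4 (109 TPM), Saa1 (96.1 TPM), Apcs (63.9 TPM), Saa2 (42.5 TPM), Orm2 (24.9 TPM) and Lcn2 (6.51 TPM). Hp exceeded Hpx in 8 of 12 libraries, Saa4 exceeded Saa1 in 10 and Saa1 exceeded Apcs in 9, so the order of these neighbours was not fixed. Hpx exceeded Orm1, Orm1 exceeded Itih4, Itih4 exceeded Saa4 and Orm2 exceeded Lcn2 in all 12 libraries. Together the 10 genes held 0.714% ± 0.034 of TPM in KSL0608-Se treated liver, 0.747% ± 0.233 in aged/doxo liver and 0.680% ± 0.120 in young control liver (SD, n = 4 each).

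Some libraries stood apart from the rest over all genes. The main axis of variation held 54.9% of the variance of log2(TPM + 1), and aged/doxo library 2 and young control library 1 lay at one end of it. Aged/doxo library 2 held 27.6% of its TPM in mitochondrially encoded genes, against 8.1% to 12.4% in the other 11 libraries, and it was the lowest of the 12 libraries for 54.8% of all tested genes. Young control library 1 was the lowest for 21.4%. All 15 hepatocyte markers were above a mean of 1 TPM, and their sum was 85025 to 94677 TPM in treated, 53053 to 92738 TPM in aged/doxo libraries and 72260 to 90249 TPM in young control liver. In bulk tissue, fewer cells of a type and less RNA per cell cannot be told apart. For some of the 10 genes, differences are also given without aged/doxo library 2 or 4. Genes printed without such values were not always steadier. Where leaving out 1 library at a time changed the sign of a difference, its range is given at the end.

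**Figure D1:**
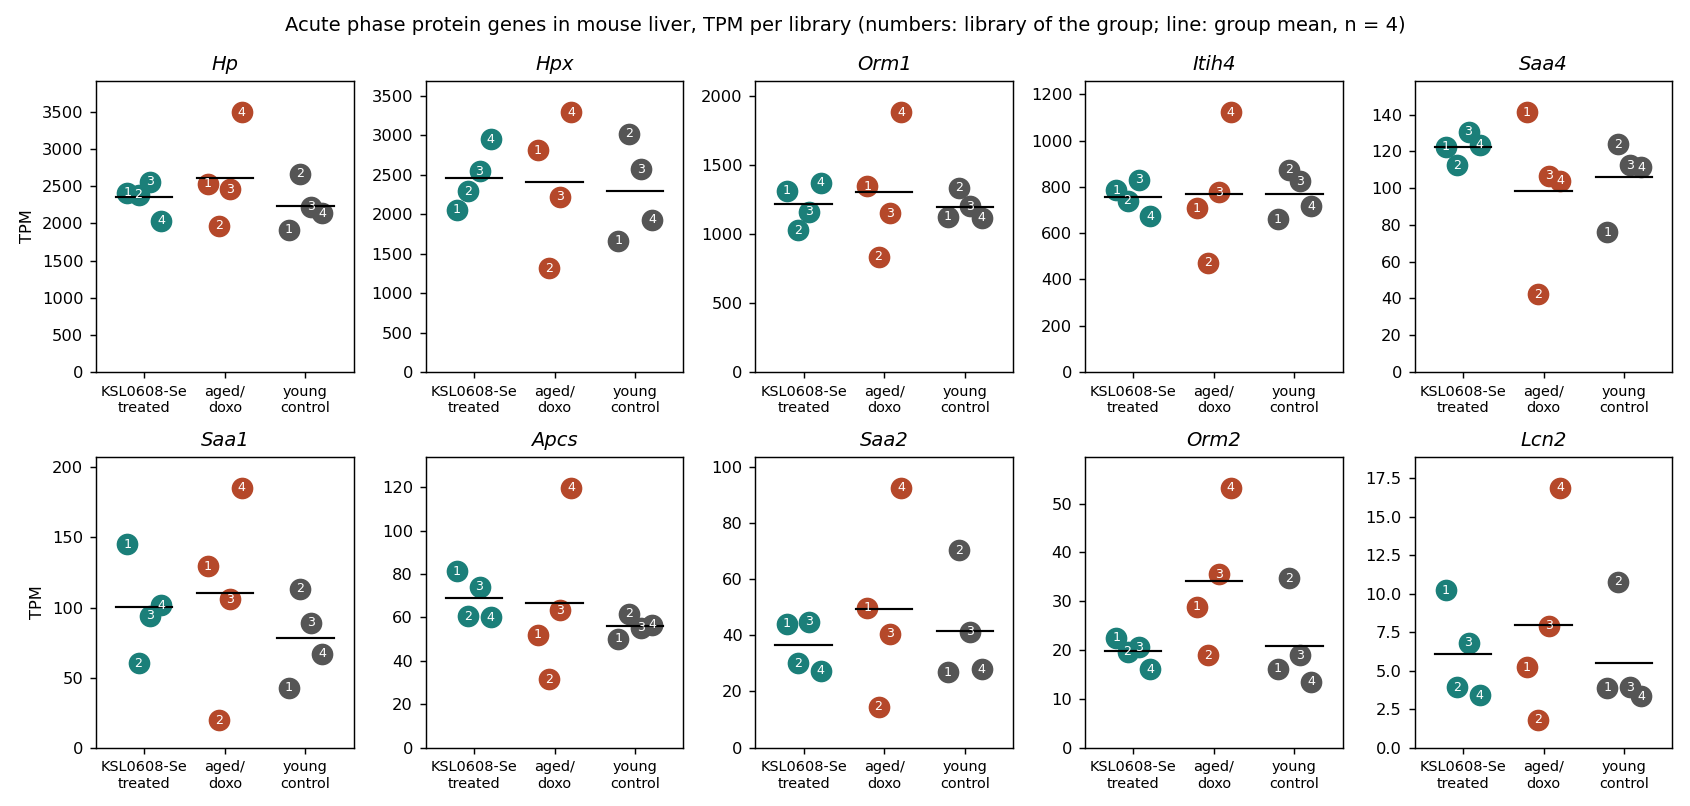
TPM (linear vertical axis from 0, one scale per gene) of the 10 acute phase protein genes in the 12 libraries, grouped along the horizontal axis. Each numbered point is 1 library and each line the group mean (n = 4). Aged/doxo libraries 2 and 4 mark the low and high ends of most panels, and the groups overlap in every panel.

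The comparison of aged/doxo with young control liver asks whether acute phase transcripts differ in the group labelled aged and doxo. By limma on log2(TPM + 1), 0 of the 10 genes passed an adjusted p of 0.05, where 1 of 10883 genes did (0.00919%), and 0 had an unadjusted p under 0.05, where 1.98% of all genes did. In none of the 10 did the groups stand clear of each other. For all tested genes, aged/doxo libraries lay wholly above young control libraries in 0.689% and wholly below in 0.312%. The log2 difference was positive for 8 of 10 genes with a median of 0.09, beside a median of -0.08 over all tested genes. Without aged/doxo library 2 it was positive for 10 of 10 (median 0.36, all genes 0.10) and 2 of 10 had an unadjusted p under 0.05, and without aged/doxo library 4 it was negative for 8 of 10 (median -0.16, all genes -0.09). The direction therefore rested on which of these libraries was in the group.

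The comparison of KSL0608-Se treated with aged/doxo liver asks whether the compound changes these transcripts. Again 0 of 10 genes passed, where 1 of 10883 did (0.00919%), and 0 of 10 had an unadjusted p under 0.05, where 4.77% of all genes did. No gene of the 10 had groups that stood clear of each other, while treated libraries lay wholly above aged/doxo libraries in 2.77% of all genes and wholly below in 0.358%. The differences were positive for 5 and negative for 5, with a median of 0.00 beside 0.30 over all tested genes. Without aged/doxo library 2, 9 of 10 were negative (median -0.25, all genes 0.13) and 1 of 10 had an unadjusted p under 0.05, and without aged/doxo library 4, 9 of 10 were positive (median 0.26, all genes 0.32). Median-of-ratios scaling, which sets the typical gene to no change, also left 9 of 10 negative, with a median of -0.33 beside 0.03 over all genes, and 2 of 10 had an unadjusted p under 0.05. None passed after adjustment in any of these.

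KSL0608-Se treated liver was also set against young control liver, which shares its libraries with the comparisons above. Of the 10 genes 0 passed, where 3 of 10883 did (0.0276%), and 0 had an unadjusted p under 0.05, where 3.4% of all genes did. None had groups that stood clear of each other. Treated libraries lay wholly above young control libraries in 3.66% of all genes and wholly below in 0.358%. The differences were positive for 8 of 10 with a median of 0.10, beside 0.23 over all tested genes. With median-of-ratios scaling 8 of 10 were negative, with a median of -0.19 beside -0.01. An exact permutation test of each gene in each comparison, 30 two-sided tests of 4 libraries against 4, gave no p under 0.05, and the smallest was 0.0857, where 0.0286 is the smallest this design allows.

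**Figure D2:**
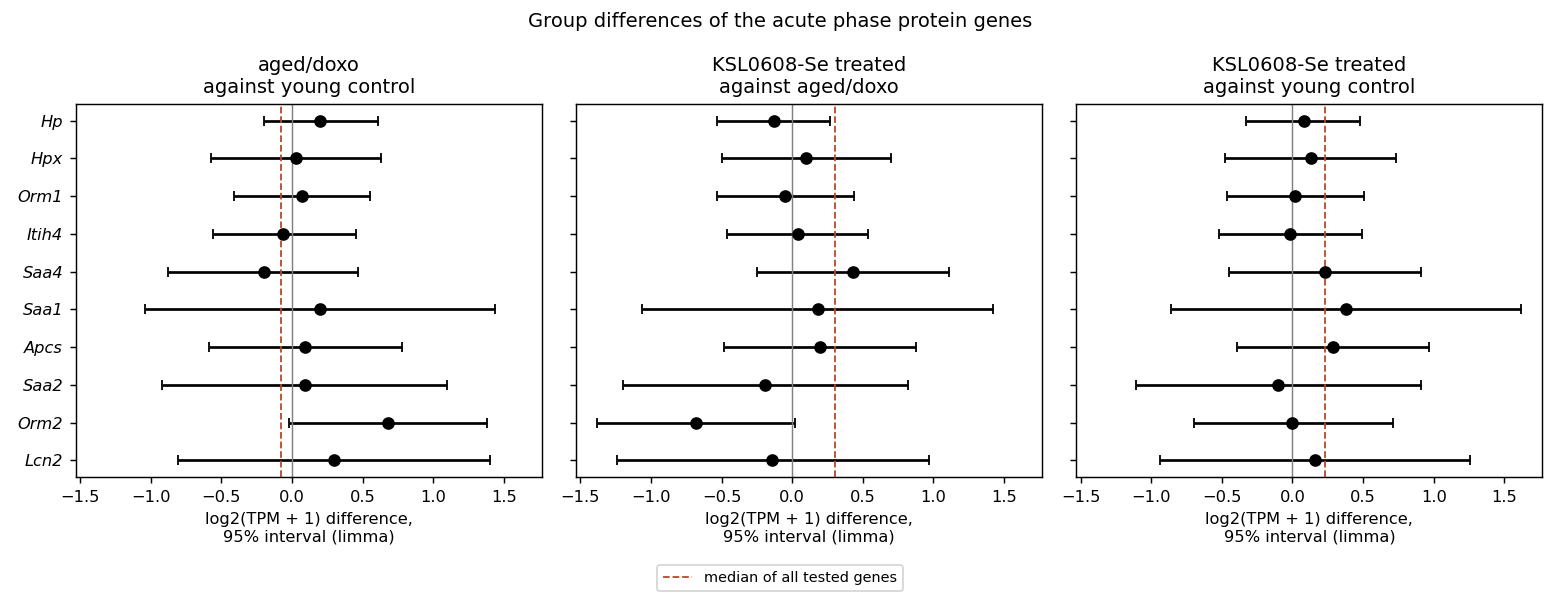
Difference in log2(TPM + 1) between groups (horizontal axis) for each of the 10 genes, ordered by mean level, in 3 comparisons. Points are limma estimates and bars their 95% intervals, and the dashed line is the median of all 10883 tested genes. Each of the 30 intervals includes 0, and those of Saa1 and Lcn2 are among the widest.

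The inducible serum amyloid A genes, Saa1 and Saa2, encode apolipoproteins that can rise steeply in inflammation. Saa1 stood at 145, 60.3, 93.95 and 102 TPM in KSL0608-Se treated libraries 1 to 4, at 129, 19.6, 106 and 185 TPM in aged/doxo libraries 1 to 4 and at 42.7, 113, 89.0 and 67.0 TPM in young control libraries 1 to 4. The highest and the lowest of the 12 values were both in aged/doxo liver, 9.46-fold apart, and they enclosed all values of the other groups. Its log2 difference was 0.20 for aged/doxo against young control (95% interval -1.04 to 1.44) and 0.18 for treated against aged/doxo (-1.06 to 1.42), and both intervals included 2-fold differences in either direction. These became 0.89 and -0.51 without aged/doxo library 2, and -0.17 and 0.55 without aged/doxo library 4. Saa2 stood at 44.1, 30.1, 44.9 and 27.3 TPM in treated liver, at 49.7, 14.6, 40.5 and 92.4 TPM in aged/doxo liver and at 26.8, 70.2, 41.2 and 27.8 TPM in young control liver. Young control library 2 was the second highest of the 12 for Saa2. The sum of Saa1 and Saa2, which does not depend on how reads were divided between them, averaged 137 ± 40.6 TPM in treated, 159 ± 100 TPM in aged/doxo libraries and 120 ± 49.4 TPM in young control liver (SD, n = 4 each). Saa1 was 1.34 to 3.73 times Saa2 over the 12 libraries.

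Saa4 encodes the constitutive serum amyloid A of plasma, which is known to respond little to inflammation. It stood at 122, 112, 131 and 124 TPM in treated liver, at 141, 42.2, 107 and 104 TPM in aged/doxo liver and at 76.1, 124, 112 and 111 TPM in young control liver. Treated libraries lay within a narrow range, with an SD of 0.09 on the log2(TPM + 1) scale, against 0.75 in aged/doxo and 0.31 in young control libraries. Its low values were in the 2 libraries that stood apart over all genes. The log2 difference of treated against aged/doxo liver was 0.43 (SE 0.31, limma adjusted p = 0.433), and 0.07 without aged/doxo library 2. Aged/doxo against young control liver gave -0.20, and 0.16 without that library. Saa4 was the only gene of the 10 whose highest library was not aged/doxo library 4.

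Orm1 and Orm2 encode alpha-1-acid glycoproteins, plasma lipocalins that bind drugs and steroids. Orm1 stood at 1315, 1029, 1162 and 1370.1 TPM in treated liver, at 1347, 836, 1152 and 1883 TPM in aged/doxo liver and at 1124, 1334, 1203 and 1116 TPM in young control liver. Its group means of 1219 ± 154 TPM in treated, 1305 ± 439 TPM in aged/doxo libraries and 1194 ± 101 TPM in young control libraries (SD, n = 4 each) lay closer together than the libraries of any group. Orm2 stood at 22.6, 19.7, 20.5 and 16.1 TPM in treated liver, at 28.8, 18.9, 35.5 and 53.2 TPM in aged/doxo liver and at 16.2, 34.75, 18.9 and 13.5 TPM in young control liver. It was above 25 TPM in 3 of 4 aged/doxo libraries, in 1 young control library and in no treated library, and treated and aged/doxo libraries overlapped through aged/doxo library 2. The log2 difference was -0.68 for treated against aged/doxo (SE 0.32, limma adjusted p = 0.427, Benjamini-Hochberg) and 0.68 for aged/doxo against young control (SE 0.32, limma adjusted p = 1). These were the largest differences of the 10 genes in either comparison, and neither passed. Without aged/doxo library 4 they were -0.44 and 0.44, and without aged/doxo library 2 they were -0.92 and 0.92.

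A ratio of close relatives within a library is not affected by the scaling of that library. It does depend on how reads shared by the relatives were divided, which was not stated. The ratio of Orm1 to Orm2 was 58.3, 52.3, 56.6 and 85.0 in treated liver, 46.7, 44.2, 32.5 and 35.4 in aged/doxo liver and 69.5, 38.4, 63.6 and 82.8 in young control liver. All treated libraries lay above all aged/doxo libraries, so that Orm2 held a smaller share of the pair in every treated library than in any aged/doxo library. This ratio was tested after its values were seen, as 1 of 12 tests of 4 ratios (log2 difference 0.66, exact permutation p = 0.0286, 0.343 adjusted over the 12). That p is the smallest the design allows, and a single test at it cannot pass over 12. Without treated library 4 or aged/doxo library 3 the exact p was 0.0571. Aged/doxo against young control liver gave a log2 difference of -0.64 in this ratio (exact permutation p = 0.0857) with overlapping groups. Young control library 2, at 38.4, was the only one of its group within the range of aged/doxo liver. Leaving it out made the groups stand clear of each other. The exact permutation p of 0.0286 without it was therefore fixed by that choice and tests nothing further.

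Lcn2 encodes lipocalin 2, made by stressed hepatocytes and also stored in neutrophils. It stood at 10.2, 3.94, 6.80 and 3.42 TPM in treated liver, at 5.23, 1.80, 7.92 and 16.9 TPM in aged/doxo liver and at 3.88, 10.8, 3.93 and 3.33 TPM in young control liver. The highest values were in treated library 1, aged/doxo library 4 and young control library 2, the groups overlapped, and the range over all libraries was 9.37-fold. The log2 difference was 0.30 for aged/doxo against young control liver (95% interval -0.81 to 1.40) and -0.14 for treated against aged/doxo liver (-1.24 to 0.97). They were 0.75 and -0.59 without aged/doxo library 2, and -0.14 and 0.30 without aged/doxo library 4. Of 18 neutrophil markers, 3 had a mean of at least 1 TPM, which were S100a8, S100a9 and Wfdc21. The summed level of all 18 was 869 to 1136 TPM in treated, 208 to 1088 TPM in aged/doxo libraries and 456 to 1192 TPM in young control liver, nearly all of it Wfdc21. Wfdc21 stood at 205 to 1185 TPM over the libraries, while S100a9 was at most 3.62 TPM. The sum therefore followed Wfdc21 and cannot be read as a measure of neutrophils. The defining markers Ly6g, Camp and Ltf were at or near 0, with highest values of 0.13, 0.53 and 0.11 TPM in any library. Young control library 2 had the highest Lcn2 of its group. There 7 of the 18 markers were also the highest of the group and 11 were not. The 7 were S100a8, Ngp, Ltf, Camp, Mpo, Elane and Mmp8, with Mpo at 0.99, Elane at 0.59 and Camp at 0.53 TPM. Ngp, Camp and Mpo were 0 in the rest of the group. Among the 11, Ly6g and Stfa2l1 were 0 in the whole group. Of all tested genes 50.4% were highest of the group in that library, but only 3 of the 18 markers were tested. The part of neutrophils in Lcn2 was not tested.

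Hp encodes haptoglobin, which captures free haemoglobin, and Hpx encodes hemopexin, which captures free haem. Hp stood at 2414, 2386, 2560 and 2037 TPM in treated liver, at 2532, 1970 and 2461 TPM in aged/doxo libraries 1 to 3 and 3497 TPM in library 4, and at 1918, 2669, 2224 and 2139.5 TPM in young control liver. It was the steadiest of the 10, with a 1.82-fold range. Its log2 difference of treated against aged/doxo liver was -0.13 (95% interval -0.53 to 0.27), and that of aged/doxo against young control liver was 0.20 (-0.20 to 0.61), so a 2-fold change in either direction lay outside both intervals. Both differences depended on single libraries, at -0.25 and 0.33 without aged/doxo library 2 and at 0.02 and 0.05 without aged/doxo library 4. Hpx stood at 2057, 2290.4, 2543 and 2949 TPM in treated liver, at 2809, 1313, 2223 and 3293 TPM in aged/doxo liver and at 1661, 3023, 2573 and 1927 TPM in young control liver. Of its values, the lowest was in aged/doxo library 2 and the highest in aged/doxo library 4.

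The ligand of haptoglobin comes from red cells, and haemoglobin transcripts were followed for that reason. Of 7 tested erythroid genes, 0 passed in any comparison, with medians of 0.80 for aged/doxo against young control, -0.67 for treated against aged/doxo and 0.09 for treated against young control liver. Hba-a1, an alpha-globin gene, stood at 162, 238, 239.8 and 266 TPM in treated liver, at 303, 618, 429 and 439.96 TPM in aged/doxo liver and at 338, 118, 213 and 370.1 TPM in young control liver. All treated libraries lay below all aged/doxo libraries (log2 difference -0.96, SE 0.34, limma adjusted p = 0.427). Hp and Hpx had no such order. The highest Hba-a1 was in aged/doxo library 2, while Hba-a2, Hbb-bs and Hbb-bt were highest in aged/doxo library 3 at 1033, 895 and 124 TPM. Cd163, the macrophage receptor for haptoglobin bound to haemoglobin, averaged 2.87 ± 0.927 TPM in treated livers, 1.75 ± 1.11 TPM in aged/doxo livers and 2.15 ± 0.405 TPM in young controls (SD, n = 4 each) and did not pass. Of 15 tested receptors and partners of the 10 proteins, 0 passed in any comparison, and Slc22a17, a receptor of lipocalin 2, was under 1 TPM in every library.

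Apcs encodes serum amyloid P, a pentraxin that is a major acute phase protein in mice. It stood at 81.4, 60.6, 74.2 and 60.2 TPM in treated liver, at 52.1, 31.6, 63.3 and 119.7 TPM in aged/doxo liver and at 50.3, 61.7, 55.3 and 56.6 TPM in young control liver. Young control libraries kept within an SD of 0.12 on the log2(TPM + 1) scale, against 0.78 in aged/doxo libraries. The log2 difference of treated against young control liver was 0.29 (SE 0.32, limma adjusted p = 0.734). Itih4 encodes a heavy chain of the inter-alpha-trypsin inhibitor family. It stood at 786, 741, 831 and 674 TPM in treated liver, at 708, 473, 777 and 1123 TPM in aged/doxo liver and at 661, 874, 825 and 716 TPM in young control liver. Its group means were 758 ± 67.2 TPM in treated, 770 ± 269 TPM in aged/doxo libraries and 769 ± 97.6 TPM in young control libraries (SD, n = 4 each), the closest of any of the 10.

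The spread between libraries was wider in aged/doxo liver. The median SD of the 10 genes on the log2(TPM + 1) scale was 0.20 in treated, 0.67 in aged/doxo and 0.35 in young control libraries, beside medians over all tested genes of 0.21 in treated, 0.46 in aged/doxo and 0.36 in young control libraries. Aged/doxo library 4 was the highest of the 12 libraries for 9 of the 10 genes, where it was highest for 10.9% of all tested genes. Aged/doxo library 2 was the lowest for 8 of the 10, where it was lowest for 54.8% of all tested genes. Averaged over the 10 genes, library 4 lay 0.82 above the mean of the 12 libraries on the log2 scale while all tested genes averaged -0.03 there. Library 2 lay at -0.94, beside -0.56 for all tested genes. Young control library 2 lay at 0.39, beside 0.15 for all tested genes, and was the highest of its group for 10 of the 10 genes, where it was highest of the group for 50.4% of all tested genes.

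**Figure D3:**
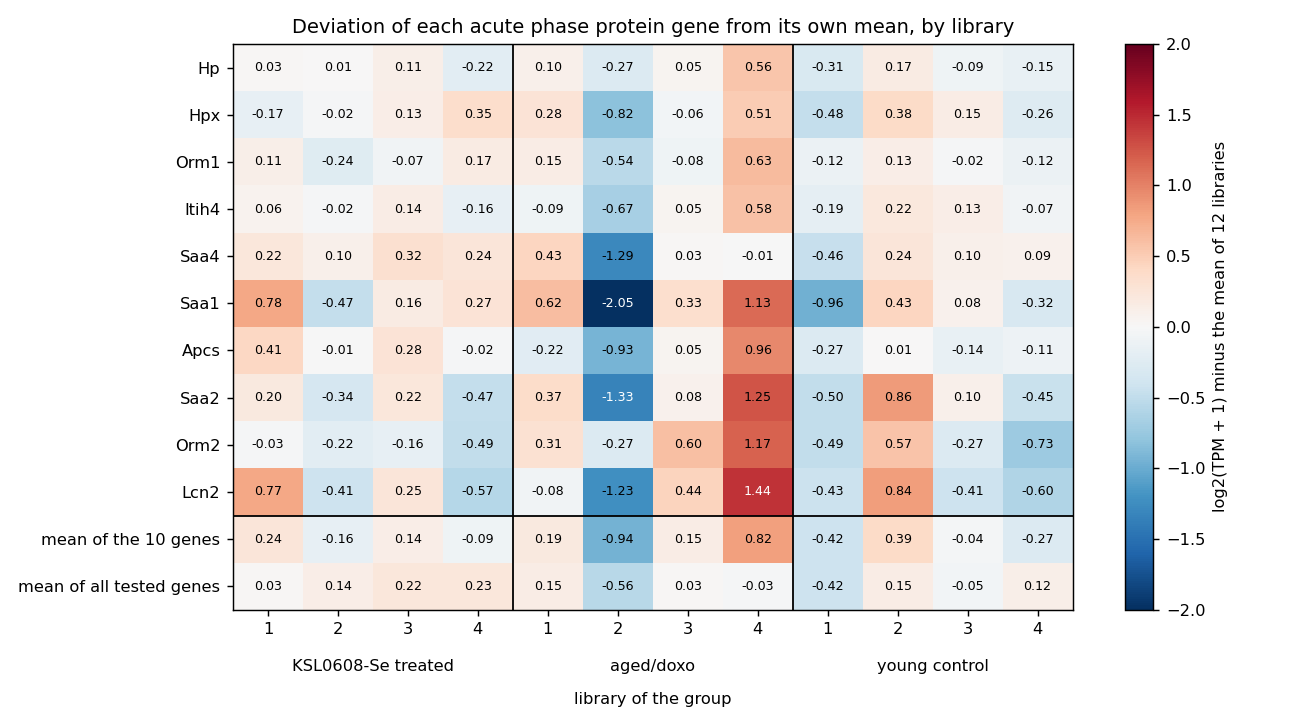
Difference between the log2(TPM + 1) of each gene in a library and the mean of that gene over 12 libraries (colour and printed value), with libraries in columns by group and genes in rows by mean level. The lower rows give the mean of the 10 genes and the mean of all 10883 tested genes, which are 0.82 and -0.03 in aged/doxo library 4, and -0.94 and -0.56 in aged/doxo library 2.

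Other measures moved with these libraries. Kupffer cell and macrophage markers summed to 243 to 370 TPM in treated, 94.2 to 599 TPM in aged/doxo libraries and 234 to 416 TPM in young control liver, with both aged/doxo extremes in libraries 2 and 4, and all 16 had a mean of at least 1 TPM. Of these 16 markers, 13 were highest of the 12 libraries in aged/doxo library 4 and 12 were lowest in aged/doxo library 2. In aged/doxo library 3 the markers did not move with the 10 genes. They summed to 126 TPM and averaged -0.90 on the log2 scale there, beside 0.15 for the 10 genes. Gene length as recorded in the table moved with library 4. Of the 1581 tested genes under 1000 bases, 26.3% were highest in aged/doxo library 4, against 4.7% of the 4234 genes over 3000 bases. In aged/doxo library 2 it was the longer genes that were more often lowest, 34.2% of those under 1000 bases, 60.7% of those from 1000 to 3000 and 55.4% of those over 3000. Of the 10 genes, 6 are under 1000 bases, 3 lie between 1000 and 3000 and 1, Itih4, is longer. The part of these measures in the values of the 10 genes was not tested.

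The 10 genes varied together over the libraries. All 45 pairs had a positive Pearson r, from 0.20 to 0.93 with a median of 0.81 (median Spearman rho 0.68, n = 12 libraries), and the median was 0.83 after centring each gene on its group means. After adjustment over the 45 pairs, 36 passed by the permutation p of r and 24 by that of rho. These p-values ask only whether a pair is unrelated. The share of pairs of all tested genes that would pass was not computed, so the counts cannot be called particular to the 10. Saa2 and Lcn2 had an r of 0.92, and Saa2 and Itih4 one of 0.93. Between Saa1 and Saa2, r was 0.87 (permutation p = 0.00014, adjusted p = 0.00157) and rho was 0.83 (permutation p = 0.00162, adjusted p = 0.00607), and r was 0.78 without the 2 libraries of most extreme Saa1. Between Hp and Lcn2, r was 0.87 (permutation p = 0.00021, adjusted p = 0.00161) and rho was 0.89 (permutation p = 0.00024, adjusted p = 0.00495), and r was 0.85 without the 2 libraries of most extreme Hp. Other pairs depended more on such libraries, and over the 45 pairs the median r without the 2 libraries of most extreme level of the first gene was 0.54. Between Orm1 and Itih4, r was 0.82 in 12 libraries and 0.09 without aged/doxo libraries 2 and 4, the extremes of Orm1. A part of such an r can be shared by all genes of a library, to a degree that differed between the 10. The r with all tested genes had a median of 0.73 for Saa4 and 0.54 for Saa1. It was 0.28 for Hp, 0.26 for Lcn2 and 0.08 for Orm2. With median-of-ratios scaling the median of Saa1 with all tested genes was 0.05. Under that scaling the median over the 45 pairs was 0.64, with 43 positive.

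Over all 12 libraries, Saa4 went with the others least by median r. Its r with the other 9 genes had a median of 0.61, below its median of 0.73 with all tested genes, and ran from 0.20 with Orm2 to 0.84 with Saa1. Without aged/doxo library 2 and young control library 1, r of Saa4 with the others lay between -0.43 and 0.18. Of Saa4 and Saa1, r was 0.84 (permutation p = 0.00319, adjusted p = 0.00598), rho was 0.45 (permutation p = 0.147, adjusted p = 0.165) and r without those 2 libraries was 0.10. Hpx also lost much of its relation to Apcs, with an r of 0.68 in 12 libraries and 0.30 without them (rho 0.45). All pairs among Saa1, Saa2, Orm1, Orm2, Hp, Lcn2, Apcs and Itih4 had an r of at least 0.58 without them. Aged/doxo library 4 was still among those 10 libraries. Without aged/doxo libraries 2 and 4, a choice made after seeing the data, all 45 pairs had a positive r, from 0.07 to 0.85 with a median of 0.54. Orm1 then had an r of 0.14 with Apcs and 0.21 with Hp, against 0.83 and 0.74 in 12 libraries, and Saa2 and Apcs had 0.31, against 0.81, so these relations rested on the 2 aged/doxo libraries. In that setting r of Saa4 ran from 0.32 with Lcn2 to 0.80 with Saa1, and was 0.77 with Hpx. Its low values above therefore depended on which libraries were left out. No batch is named in the labels, so none of these relations could be repeated inside one.

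**Figure D4:**
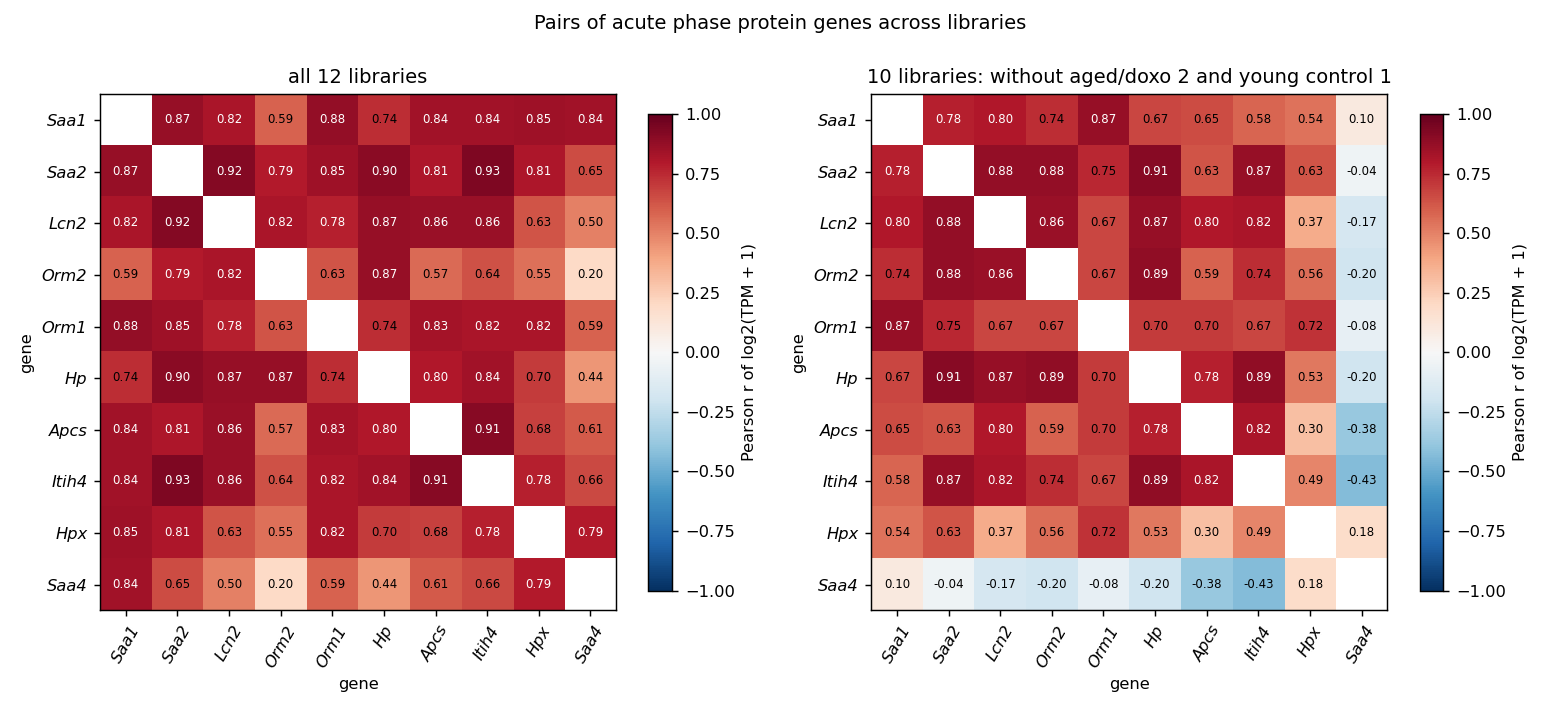
Pearson r of log2(TPM + 1) for each pair of genes (rows and columns; colour and printed value), over all 12 libraries on the left and over the 10 libraries left without aged/doxo library 2 and young control library 1 on the right. The row of Saa4 runs from 0.20 to 0.84 on the left and from -0.43 to 0.18 on the right.

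The genes most like each member were taken from 9537 protein-coding genes with a mean of at least 1 TPM, by Pearson r over the 12 libraries. For Saa1 these were Mrps6 (r = 0.97), Sec61b and Mrpl42 (0.95 each), and for Saa2 they were Cxcl9, Tgtp1 (0.89 each) and Nans (0.88). For Saa4 they were Dnaja1, Mtif3 and Aven (0.99 each). For Orm1 they were Ifitm3, Apol9b (0.92 each) and Psmb8 (0.91), and for Orm2 Cxcl1 (0.88), Rad52 (0.86) and Col1a1 (0.83). For Hp they were Sap18b (0.87), Prg4 and Dtwd1 (0.84 each), and for Hpx Foxa3, Usp18 and H2-D1 (0.95 each). For Lcn2 they were Utp11 (0.88), Cxcl9 and AI987944 (0.87 each), for Apcs Tomm6 (0.95), Arpc1b (0.94) and Llph (0.92), and for Itih4 Brix1 (0.93), Ubxn1 and Pop5 (0.91 each). Only Cxcl9 was named for more than 1 gene, Saa2 and Lcn2. These values describe likeness over the same 12 libraries, which share the library-wide differences described above.

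Of 41 other tested positive acute phase genes, 0 passed in any comparison, with medians of -0.11 for aged/doxo against young control, 0.36 for treated against aged/doxo and 0.23 for treated against young control liver, beside -0.08, 0.30 and 0.23 over all tested genes. Mbl2, a mannose-binding lectin that activates complement, had the smallest unadjusted p of the 41 in both comparisons with young control liver. It stood at 603, 698, 607 and 475 TPM in treated liver, at 651, 216, 679 and 569 TPM in aged/doxo liver and at 213, 295, 223 and 267 TPM in young control liver. All treated libraries lay above all young control libraries, as did 3 of 4 aged/doxo libraries (log2 difference of treated against young control 1.25, SE 0.32, limma adjusted p = 0.734). Saa3, the serum amyloid A that macrophages and fat cells make, stood at 12.4, 6.94, 8.58 and 6.85 TPM in treated liver, at 11.2, 18.2, 12.03 and 25.3 TPM in aged/doxo liver and at 15.5, 17.5, 9.94 and 7.80 TPM in young control liver. Its log2 difference of treated against aged/doxo was -0.83 (SE 0.31, limma adjusted p = 0.427). Of the 41 genes, 10 were highest in aged/doxo library 4, against 9 of the 10 members.

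Negative acute phase genes, whose products fall in inflammation, also held no called gene among 22 tested in any comparison. Their medians were -0.04 for aged/doxo against young control, 0.27 for treated against aged/doxo and 0.14 for treated against young control liver. Serpina7, which encodes thyroxine-binding globulin, had a log2 difference of 0.87 for treated against aged/doxo liver (SE 0.29, limma adjusted p = 0.427), and 4 of the 22 were highest in aged/doxo library 4.

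Upstream genes gave no call either. Of 18 tested genes of the interleukin-6 and STAT3 pathway 0 passed in any comparison, nor did any of 17 of the interleukin-1, TNF and NF-kappaB pathway or of 15 glucocorticoid and hepatocyte nuclear factor regulators. Their medians for treated against aged/doxo liver were 0.25, 0.39 and 0.49, beside 0.30 over all tested genes. Il6 itself was at most 0.12 TPM in any library, and Tnf at most 0.43 TPM. Il6ra, the receptor that gives hepatocytes their response to interleukin-6, had a log2 difference of 0.59 for treated against aged/doxo liver (SE 0.33, limma adjusted p = 0.427). Cxcl1, a neutrophil-attracting chemokine, averaged 2.89 ± 0.661 TPM in treated, 5.01 ± 1.87 TPM in aged/doxo libraries and 3.44 ± 2.00 TPM in young control liver (SD, n = 4 each), and its log2 difference of treated against aged/doxo was -0.59 (SE 0.31, adjusted p = 0.427). Tat, a tyrosine-degrading enzyme induced by glucocorticoids, had a log2 difference of 0.99 for treated against aged/doxo (SE 0.39, adjusted p = 0.427), and Sgk1, a kinase they also induce, had 0.86 (SE 0.39, adjusted p = 0.427). Aged/doxo library 2, lowest of the 12 for 54.8% of all tested genes, was lowest of its group for Il6ra (0.60 TPM) and Tat (147 TPM). Sgk1 was instead lowest of that group in library 1 (3.38 TPM). The differences of these genes are not given without library 2. Socs3, a feedback target of STAT3 chosen after its values were seen, stood at 0.81, 1.2, 1.13 and 3.39 TPM in treated liver, at 6.22, 2.75, 6.43 and 1.35 TPM in aged/doxo liver and at 1.01, 7.64, 1.24 and 0.84 TPM in young control liver. Young control library 2 was high in Socs3 as well as in the 10 genes. Aged/doxo library 4, the highest for 9 of the 10, was the lowest of its group in Socs3. Irf1 (13.7 TPM) and Cebpd (1.87 TPM) of the same pathway were instead highest of the 12 libraries in aged/doxo library 4. They were 2 of 18 tested, where 10.9% of all tested genes were highest there. From their means, the 18 genes averaged 0.55 in young control library 2 and -0.19 in aged/doxo library 4 on the log2 scale. A link to the 10 genes was not tested.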

How the data were processed

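The deposited values are TPM, computed by the authors for 55903 genes in 12 liver libraries, each summing to about 1000000. fastp, HISAT and RSEM are named per the submitters' processing notes; their versions, the genome build, the annotation and the strandedness were not stated. Sequencing depth is lost in TPM and so is unknown, and counting error could not be given. No pair of libraries held identical values. Gene positions came from GENCODE M21 (GRCm38), which held 55141 of the 55487 Ensembl identifiers.

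limma 3.58.1 in R 4.3.3, with an intensity trend, was fitted with group as the only term to log2(TPM + 1) of all 12 libraries, over the 10883 genes averaging 1 TPM or more. The pseudocount of 1 understates changes of low genes. Tests were two-sided with Benjamini-Hochberg adjustment over all genes and a threshold of 0.05. Exact permutation tests used all 70 divisions of 8 libraries, and correlations 100000 resamples. On simulated data of aged/doxo and young control libraries (10883 genes), the fit recovered 31.7% of genes shifted by 1 on the log2 scale and 88.5% of those shifted by 2. False calls averaged 3.40 and 10.40 per draw. The noise was drawn for each gene separately, with the same spread in every group. It thus lacked the differences shared by all genes of a library and the wider spread of aged/doxo liver, so these shares may not hold for the real libraries.

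The members and gene lists were chosen with earlier results of these data known. All 10 members are named, with up to 3 genes of smallest p per other list and comparison, and the 3 most alike genes per member. Neutrophil markers other than the 3 tested, Il6, Tnf, Slc22a17, Socs3, Irf1 and Cebpd were added after their values were seen. Alternatives covered pseudocount, filter, scaling, the replicate block, fits of the compared groups alone and left-out libraries. Transcripts were aligned with Biopython 1.88 and figures drawn with matplotlib 3.10.9.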

Additional observations from a re-analysis of the deposited data

Results flagged for a closer look

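Lcn2 stood at 10.76 TPM in young control library 2, far above the other libraries of its group at 3.88, 3.93 and 3.33 TPM, with a gap of 0.919 of the group's range. It was the only one of 30 combinations of gene and group so flagged, and chance flags about 1 in 20. All 10 genes were highest of the young control group in that library, as were 50.4% of all tested genes.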

How the results depend on the processing

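In no alternative did any of the 10 genes pass, and the smallest adjusted p of limma over all of them was 0.215. Of 630 differences recomputed, 76 had the opposite sign, 55 of these where libraries were left out. Pseudocount, filter on low values, the block and fits of the compared groups alone turned no sign. With median-of-ratios scaling, treated against aged/doxo became -0.15 for Saa1, -0.24 for Hpx, -0.13 for Apcs and -0.29 for Itih4, and treated against young control -0.06 for Saa4, -0.27 for Orm1, -0.27 for Orm2, -0.22 for Hp, -0.17 for Hpx and -0.07 for Lcn2. With quantile normalization, treated against aged/doxo became -0.11 for Saa1, -0.04 for Hpx, -0.09 for Apcs and -0.09 for Itih4, and treated against young control -0.14 for Orm1, -0.23 for Orm2, -0.04 for Hp, -0.02 for Hpx and -0.08 for Lcn2. With totals taken without mitochondrial genes, Itih4 became 0.04 for aged/doxo against young control and -0.05 for treated against aged/doxo. Without aged/doxo library 2 and young control library 1 together, chosen with earlier results known, aged/doxo against young control became 0.01 for Saa4 and 0.09 for Itih4, treated against aged/doxo -0.51 for Saa1, -0.17 for Hpx, -0.10 for Apcs and -0.17 for Itih4, and treated against young control 0.00 for Orm1, -0.08 for Orm2 and -0.02 for Hpx. With 1 library left out at a time, aged/doxo against young control ran from -0.17 to 0.89 for Saa1, -0.30 to 0.56 for Saa2, -0.42 to 0.16 for Saa4, -0.13 to 0.26 for Orm1, -0.15 to 0.29 for Hpx, -0.14 to 0.75 for Lcn2, -0.24 to 0.39 for Apcs and -0.26 to 0.16 for Itih4. Treated against aged/doxo ran from -0.51 to 0.55 for Saa1, -0.66 to 0.20 for Saa2, -0.24 to 0.15 for Orm1, -0.25 to 0.02 for Hp, -0.17 to 0.27 for Hpx, -0.59 to 0.30 for Lcn2, -0.10 to 0.53 for Apcs and -0.17 to 0.24 for Itih4. Treated against young control ran from -0.27 to 0.19 for Saa2, -0.03 to 0.10 for Orm1, -0.16 to 0.27 for Orm2, -0.02 to 0.27 for Hpx, -0.09 to 0.49 for Lcn2, -0.09 to 0.05 for Itih4 and -0.21 to 0.16 for the log2 ratio of Orm1 to Orm2. The median r of the 45 pairs was 0.64 with median-of-ratios scaling and 0.54 without aged/doxo libraries 2 and 4, a setting chosen after seeing the data. Under that scaling and without mitochondrial genes, 1 of 30 exact permutation tests had a p under 0.05, in each case Orm2 in treated against aged/doxo liver (log2 differences -0.99 and -0.76, p = 0.0286). The causes were not tested. Libraries that share a replicate number deviated together by an r of -0.58 to 0.39, with 2 of 12 pairs over 0.1. No pairing by number was seen. Differences over whole libraries enter these r, so they cannot exclude a pairing. With the replicate block 0 members passed in each comparison. Unknown depth limits what can be said of Lcn2, the lowest of the 10.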
